A study of Mus musculus with 8 samples.

Results

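The cytosolic ribosomal protein genes encode the proteins of the ribosome that works in the cytosol. They were followed here on 8 one-colour Agilent arrays of mouse haematopoietic stem cells (HSC). A member was any non-control probe whose gene name has the form of a large subunit protein (Rpl, with the stalk proteins Rplp0 to Rplp2) or a small subunit protein (Rps, with Rpsa); the ribosomal S6 kinases were left out. The rule found 135 probes of 81 genes among 41174 probes. The large subunit had 79 probes for 49 genes and the small subunit 56 probes for 32 genes. The choice used names only, no measured value.

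The cells were donor-derived HSC sorted by flow cytometry from recipient mice. The 4 groups were E47 knockout (KO) HSC from secondary recipients, wild-type (WT) HSC from secondary recipients, KO HSC from primary recipients and WT HSC from primary recipients, with 2 arrays each. E47 is a transcription factor made from the Tcf3 gene and known for its role in lymphoid development. A primary recipient received the cells first; a secondary recipient is one into which cells were transplanted again. The strain, age and number of mice, and how the knockout was made, are not given in the labels. The labels do not say whether the 2 arrays of a group held cells of separate mice, and p-values therefore reflect the scatter of these arrays alone, possibly a technical one. All samples were amplified by a global PCR before labelling. In such bulk samples fewer cells of a type and less RNA per cell cannot be told apart.

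Ribosomes consist of a large and a small subunit, each built from ribosomal RNA and a set of proteins needed in near equal numbers. Most of these proteins are encoded by one active gene each, and their mRNAs are among the most abundant in growing cells. The mRNAs begin with a run of pyrimidines, the terminal oligopyrimidine (TOP) tract, through which their translation follows nutrient and mTOR signals. HSC are known to translate little compared with progenitors, and inherited loss of single ribosomal proteins causes Diamond-Blackfan anaemia in humans, in which red cell formation fails.

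The following start regions are examples, shown because a pyrimidine run was more frequent in the members' windows than in all windows, a feature that neither the rule nor the arrays used. Each covers 25 bases before and 20 bases from the annotated start onwards, from RefSeq (GRCm38.p6); capitals mark the longest run of C and T that touches the start window. Rpl7a lies at chr2:26910782-26910826 (plus strand), Rpl35 at chr2:39005112-39005156 (minus), Rpl15 at chr14:18270967-18271011 (minus), Rps6 at chr4:86857348-86857392 (minus) and Rps9 at chr7:3704016-3704060 (plus).
Rpl7a: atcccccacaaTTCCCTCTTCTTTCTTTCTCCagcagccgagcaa
Rpl35: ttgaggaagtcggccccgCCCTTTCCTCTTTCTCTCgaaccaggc
Rpl15: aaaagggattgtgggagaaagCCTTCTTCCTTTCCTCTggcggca
Rps6: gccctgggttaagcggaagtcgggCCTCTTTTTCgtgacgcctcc
Rps9: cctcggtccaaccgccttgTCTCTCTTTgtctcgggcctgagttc

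Start regions were found for 60 of the 81 genes, in 72 windows. A run of at least 8 pyrimidines that reached into the bases from 10 before to 15 after the start was present in 31 of 72 windows (43.1%), against 15.4% of all 32851 windows. The letters CCGGAAG, a core bound by factors of the ETS family, searched on both strands in all 300 bases, were present in 34.7% of the members' windows and 8.86% of all windows. The letters AAGATGGC, a core bound by YY1, were present in 11.1% and 2.75%. The letters TATAAA, the TATA box core, were present in 9.72% and 13.6%. These are matches of letters and do not show binding.

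The 60-base probes below are shown because the largest splits between KO and WT in primary recipients were on probes of these genes. Those of Rpl35a, Rpl5 and Rpl3 parted on the dim arrays; Rpl19 probe B did not, and serves as the contrast to probe A of that gene. Positions are those in the files (mm8); the mapped span of each probe is longer than its 60 bases, as for a probe that crosses an intron. Rpl19 has 2 probes, A and B, of which probe B lies at chr11:97844005-97844480 (plus strand). The Rpl35a probes lie at chr16:32977241-32978436 (probe A) and chr16:32977256-32978456 (probe B), plus strand, and capitals mark the 25 bases they share. The Rpl5 probe lies at chr5:108144143-108145050 (plus) and the Rpl3 probe at chr15:79907077-79907651 (minus).
Rpl19 probe B: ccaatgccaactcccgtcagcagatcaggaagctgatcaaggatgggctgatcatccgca
Rpl35a probe A: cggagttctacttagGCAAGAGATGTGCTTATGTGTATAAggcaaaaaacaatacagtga
Rpl35a probe B: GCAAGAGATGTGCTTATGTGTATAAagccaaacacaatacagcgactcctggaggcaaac
Rpl5: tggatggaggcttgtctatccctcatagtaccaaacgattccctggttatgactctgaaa
Rpl3: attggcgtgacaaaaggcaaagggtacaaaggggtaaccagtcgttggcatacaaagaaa

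The arrays differed in brightness. Spots well above background made up 74.5% to 90.7% of all spots on the 4 secondary arrays and 72.2% and 74.0% on replicate 1 of the KO and WT primary groups, but 35.4% and 41.9% on replicate 2 of those groups. These last 2 arrays are called the dim arrays. Their 75th percentile, by which the levels are scaled, was 19.62 and 36.57 signal units in KO and WT, against 320.7 to 846.9 on the other 6. All 4 WT arrays lay on one slide, the KO primary arrays on another and the KO secondary arrays on another still. Genotype therefore cannot be told apart from slide, and in KO cells neither can the recipient. Of 20 HSC markers, 18 to 20 were well above background on the 6 bright arrays, against 12 and 14 on the dim ones. The neutrophil genes S100a8, S100a9, Ngp and Retnlg had scaled levels of 2.62 or more on all 4 primary arrays and of 0.07 or less on all 4 secondary arrays. They were picked from 18 listed granulocyte and monocyte genes, and their own extremes set these limits. Other genes of that list broke the pattern. Ltf stood at -1.87 on the bright KO and -1.74 on the dim WT primary array. Elane stood at -3.12 on the dim WT array and 3.77 on replicate 2 of KO secondary. Prtn3 stood at -1.33 and 2.62 on the same 2 arrays. Mpo lay at 2.2 to 3.29 on the secondary arrays. The Tcf3 probes could not be placed relative to the deleted part, and Tcf3 was well above background in KO cells (29 to 2674 units on one probe), so they do not check the genotype.

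The median ribosomal protein probe lay far above the median probe on every array. The level was even across the 4 secondary arrays and very uneven across the 4 primary arrays. The scaled level used throughout is the log2 of an array's processed signal minus the array's own 75th percentile, so 0 is the level of that percentile. The median large subunit probe stood at 4.85 and 5.14 on the KO secondary arrays and at 5.14 and 5.15 on the WT secondary arrays. It stood at 4.00 and 6.61 on the KO primary arrays and at 3.77 and 9.60 on the WT primary arrays. The median small subunit probe stood at 5.14 and 4.80 in KO secondary, 5.48 and 5.21 in WT secondary, 4.31 and 8.90 in KO primary and 4.09 and 8.61 in WT primary cells. On this scale the high value within each primary group was that of the dim array, and the bright primary arrays lay below all secondary arrays. The high values depend in part on the low 75th percentile of the dim arrays. Unscaled, the median large subunit signal was 1918 units on the dim and 5700 on the bright KO primary array, and 28390 and 4388 on the dim and bright WT primary arrays. On the secondary arrays it was 19200 and 15150 in KO and 29890 and 25830 in WT cells. The median small subunit signal was 9419 and 14260 on the dim KO and WT arrays. It was 7092 and 5446 on the bright KO and WT primary arrays, and 12040 to 37800 on the secondary arrays. The median of all probes lay between -2.995 and -1.72 on every array. The 135 probes, 0.328% of all probes, took 8.49% and 6.94% of the summed signal in KO secondary, 9.04% and 8.56% in WT secondary, 4.78% and 12.3% in KO primary and 4.12% and 9.66% in WT primary cells.

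**Figure D1:**
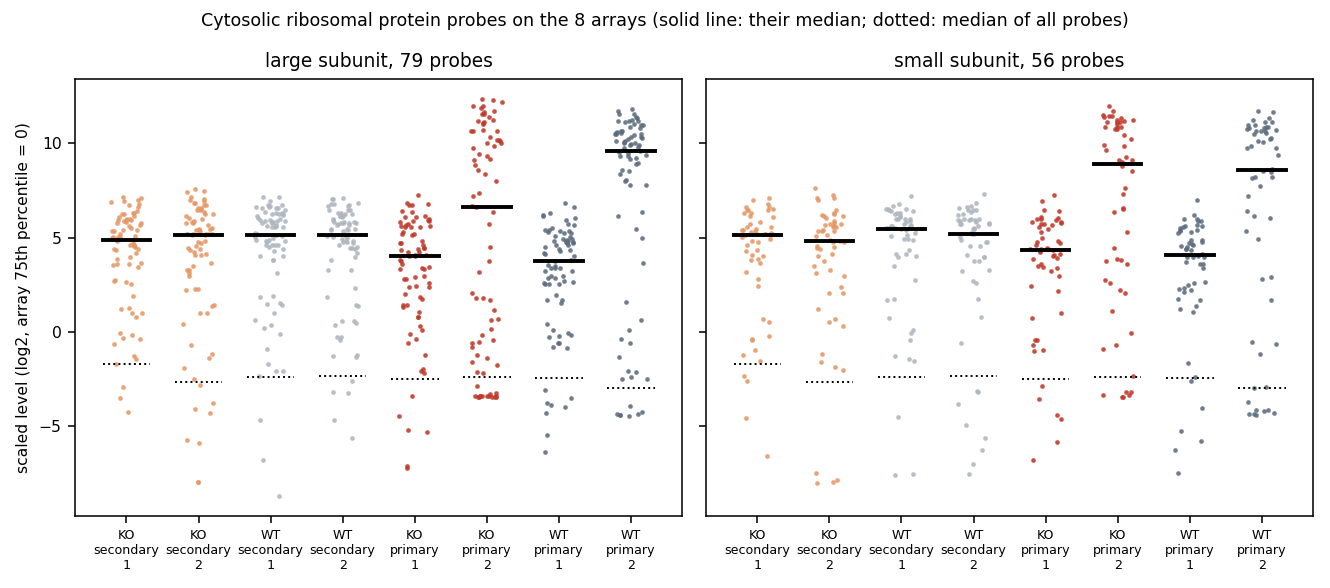
Scaled level (log2, y axis) of each large subunit probe (left) and small subunit probe (right) on the 8 arrays (x axis); the solid line is their median and the dotted line the median of all probes. The secondary arrays share medians between 4.80 and 5.48, while replicate 2 of both primary groups has many probes near 10 and a second cloud at the bottom of the scale.

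Expressed as distance from the array's median probe, the large subunit median was 7.20 ± 0.90 in KO secondary, 7.53 ± 0.01 in WT secondary, 7.77 ± 1.81 in KO primary and 9.43 ± 4.48 in WT primary cells (log2, SD, n = 2 arrays each). The small subunit median was 7.18 ± 0.46, 7.73 ± 0.21, 9.07 ± 3.21 and 9.09 ± 3.56 in the same groups. The 2 arrays of the WT secondary group were nearly identical: the median absolute difference between them was 0.16 over the 135 probes, against 0.91 over the 32775 probes tested. In KO secondary cells it was 0.55, against 1.22 over all probes tested. In the primary groups the order turned round. There the median absolute difference was 4.83 in KO and 5.09 in WT cells, against 1.78 and 1.603 over all probes tested. Members and all probes tested were not matched for level in these comparisons.

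Each gene was represented by its brightest probe, the one with the highest mean over the 8 arrays. The dim arrays entered that mean, so a low value there counted against a probe. Counts by brightest probe on the dim arrays therefore partly reflect this choice. All 81 genes were well above background by that probe on 2 secondary arrays (KO replicate 1 and WT replicate 2) and 80 on the others, 80 on both bright primary arrays, 73 on the dim KO array and 76 on the dim WT array. Over the 4 secondary arrays the median gene spanned 0.70 log2 units, against 2.64 for the median probe tested, and 55 of 81 genes (67.9%) stayed within 1 unit, against 9.83% of all probes tested. Over all 135 member probes the values were 0.86 and 59.3%. The sets were not matched for level. The median brightest probe lay at 5.39 to 5.85 on these arrays and the median of all probes at -2.70 to -1.72. Whether other probes of such levels were as even was not tested. Rps26, at the mRNA exit of the small subunit, spanned only 0.14: it stood at 6.47 and 6.48 in KO and 6.49 and 6.35 in WT secondary cells. Rpl31, near the exit tunnel, was the widest at 6.33 units: it stood at 2.55 and -3.79 in KO and 0.99 and -1.34 in WT secondary cells. Over the 4 primary arrays only 1 of the 81 genes stayed within 1 unit. That gene was Rps19, the gene most often mutated in Diamond-Blackfan anaemia, at 2.44 and 2.06 in KO and 2.65 and 2.89 in WT primary cells. Unscaled, this probe stood at 1940 and 82 units in KO and 2012 and 270 in WT primary cells. Another Rps19 probe was less even, at 3.37 and 2.20 in KO and 2.21 and 1.68 in WT primary cells.

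**Figure D2:**
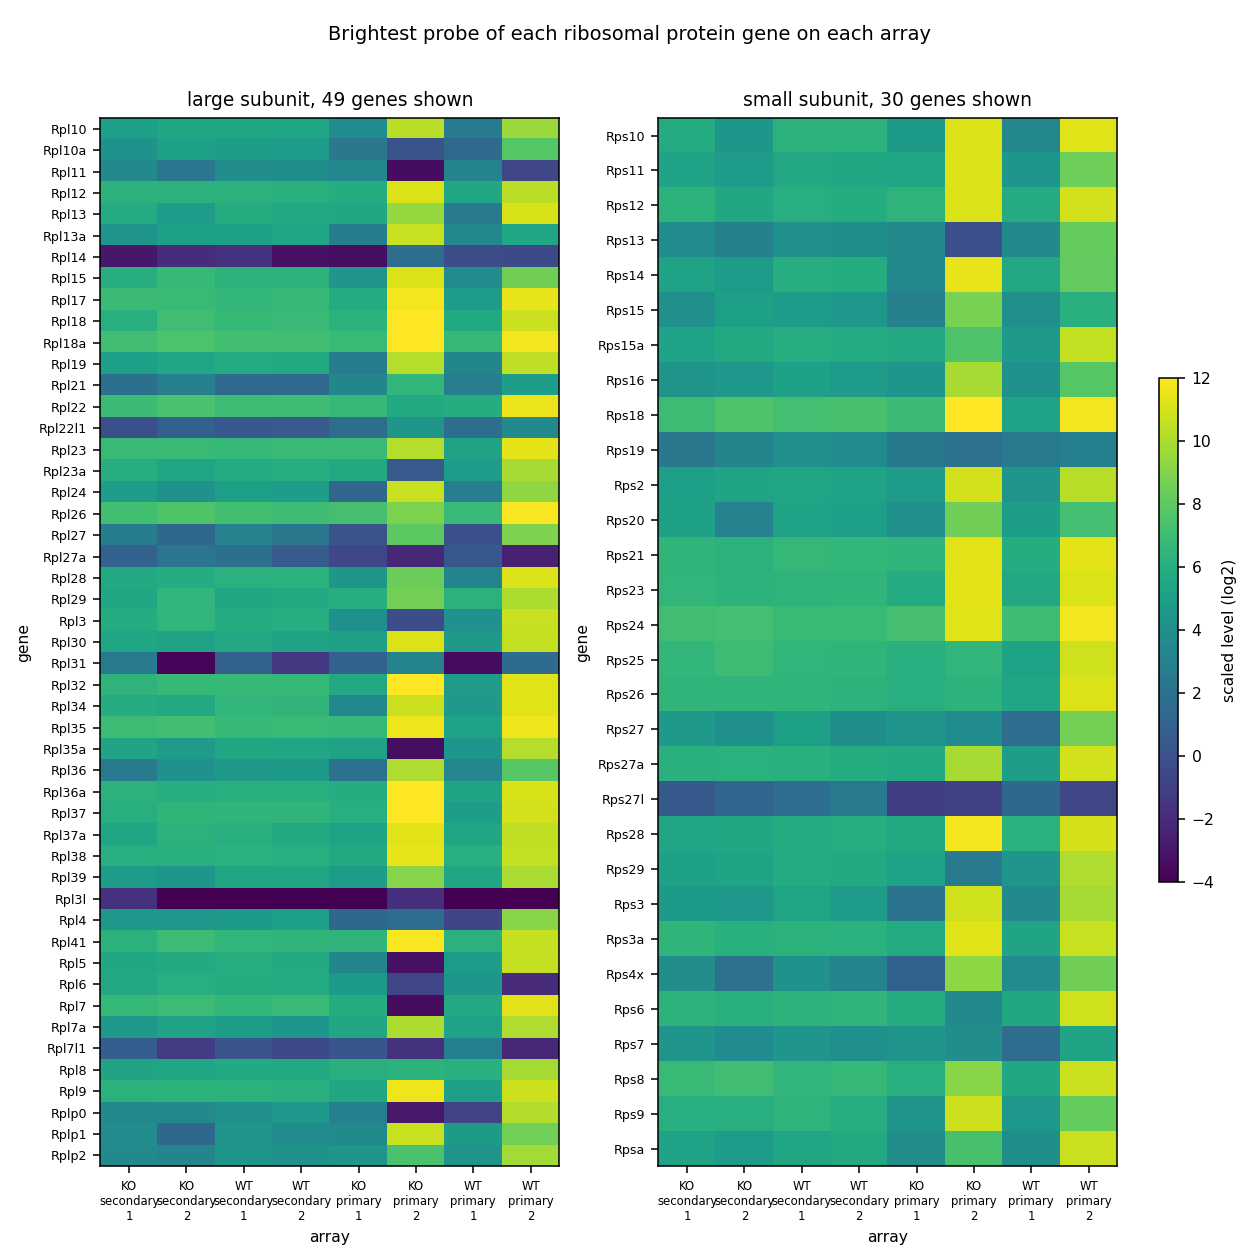
Scaled level (log2, colour) of the brightest probe of the genes shown (rows) on the 8 arrays (columns), large subunit left and small subunit right. Rows are of nearly one colour over the 4 secondary arrays; on the dim primary arrays most genes are yellow and a few, such as Rpl11, Rpl5 and Rpl7 in KO, are dark.

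On the dim arrays most genes had scaled levels far above those on the other arrays, and a few were not above background. The unscaled subunit medians of the dim arrays did not exceed the range of the secondary arrays. They did exceed those of the bright primary arrays, except for the large subunit on the dim KO array. A level of at least 7 was reached by 53 of 81 genes on the dim KO array and by 66 on the dim WT array, but by no more than 8 on any other array. The 2 arrays did not always agree on which genes were high: 50 genes were high on both. Rpl5, which carries 5S rRNA into the large subunit, stood at -3.26 on the dim KO array and 10.5 on the dim WT array, against 3.34 and 4.84 on the bright KO and WT primary arrays. Rpl7, a protein of the large subunit, stood at -3.47 and 11.27 on the dim KO and WT arrays, against 5.89 and 5.65 on the bright ones. Rplp0, the base of the stalk, stood at -2.91 and 10.14 on the dim KO and WT arrays. Rpl35a probes A and B stood at -3.40 and -3.33 on the dim KO array and at 10.22 and 9.25 on the dim WT array. These 4 genes were the ones high on the dim WT array and not above background on the dim KO array. Rpl27a, Rpl3l and Rpl7l1 were not above background on either.

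In all, 14 genes differed by more than 5 log2 units between the dim KO and dim WT arrays, 12 lower and 2 higher in KO cells. That is 17.3% of the brightest probes, against 8.09% of all probes tested, which were not matched for level. Between the bright KO and WT primary arrays no gene differed by that much, and the largest difference was 4.55. Probes of one gene also parted. Rpl19 probe A stood at -3.50 on the dim KO array where probe B stood at 10.21; on the dim WT array they stood at 11 and 10.48. In secondary cells the 2 probes were close, at 5.91 and 6.46 (probe A) and 5.04 and 5.47 (probe B) in KO and 6.38 and 6.33 (probe A) and 5.87 and 5.72 (probe B) in WT cells. Of 54 further probes of genes with several, 8 were not above background on the dim KO array while the gene's brightest probe was high there, and 11 on the dim WT array. Most of these probes also parted from the brightest one in secondary cells, with a largest gap of 7.63 units or more. The exceptions were Rpl19 probe A and one Rpl29 probe (dim KO array) and one Rps3 probe (dim WT array). Their largest gaps in secondary cells were 0.98, 1.19 and 1.28. Rpl19 probe A and that Rps3 probe lay above the brightest probe of their gene on every secondary array. They missed being the brightest through their low value on a dim array, so the counts of parted probes are partly set by that choice.

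**Figure D3:**
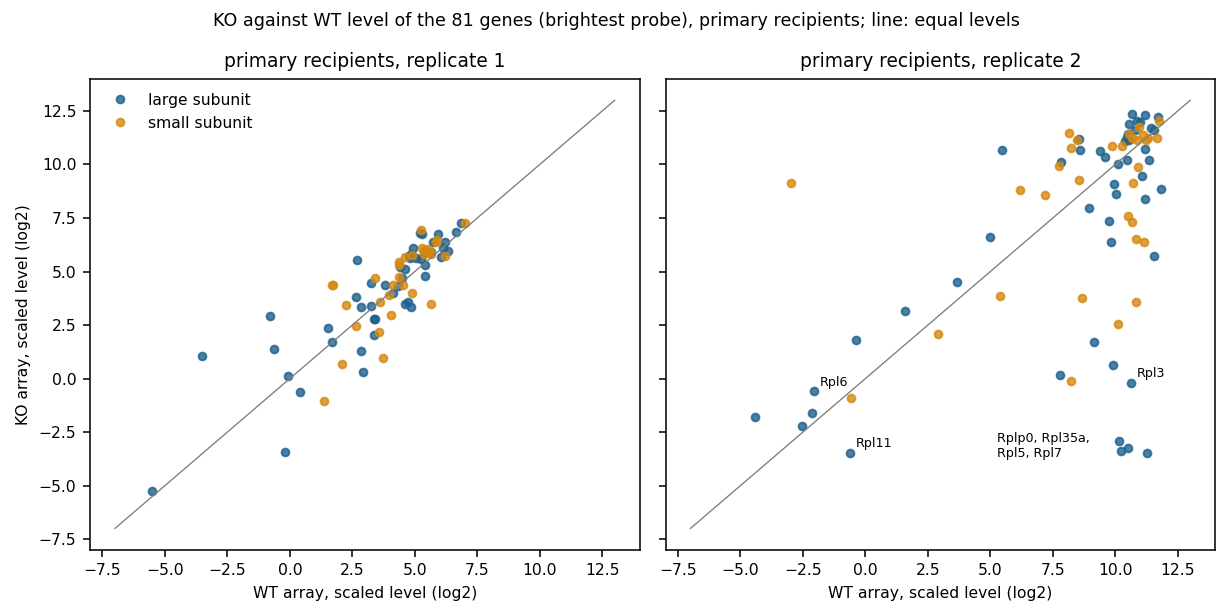
Scaled level (log2) of the 81 genes, by brightest probe, on KO arrays (y axis) against WT arrays (x axis) of primary recipients, for replicate 1 (left, bright) and replicate 2 (right, dim); the line marks equal levels. In replicate 1 all genes lie within 4.55 units of the line; in replicate 2, 12 genes lie more than 5 units below it and 2 more than 5 units above.

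KO and WT HSC of primary recipients were compared to ask whether loss of E47 changed ribosomal protein mRNA levels after the first transplantation. No member passed the test (limma, Benjamini-Hochberg adjustment over 32775 probes, lowest adjusted p 0.999), and of all probes tested 0% passed. At an unadjusted p under 0.05 there were 9 of 132 tested members, against 3.70% of all probes. Relative to the median probe, the median change was -0.56 for the large and -0.09 for the small subunit. The large subunit had 48 of 79 probes below the median probe and the small subunit 30 of 56. The arrays did not overlap on 9 members lower and 5 higher in KO, against 8.44% and 17.4% of all probes tested.

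Most members of lowest p in primary recipients were ones on which the dim arrays differed. Rpl19 probe A was at 1.84 and -3.50 in KO, against 5.33 and 11 in WT cells, a change of -9.32 ± 2.22 relative to the median probe (SE, adjusted p = 0.999 by limma). KO lay below WT on this probe without overlap. Rpl5 differed by -7.96 ± 2.43 and Rpl3, next to the catalytic centre, by -5.81 ± 2.21, with the same adjusted p. In the other direction, one of 2 probes of Rps3, at the mRNA entry, stood at 4.62 and 10.44 in KO, against 2.47 and -2.94 in WT cells. Its change was 7.43 ± 2.25, and the other Rps3 probe differed by only -0.53. One probe of Rpl22l1 differed by 2.19 ± 1.45. Without both dim arrays, which leaves a single array in each primary group, the medians were 0.08 and 0.13. Without replicate 1 of WT, which leaves WT primary with the dim array alone and assumes that it varies like the other groups, 591 probes passed and 2 members among them, Rpl4 and one of 3 Rpl7 probes, lower in KO (lowest adjusted p 0.038 by limma). In that fit 1.80% of all probes were called lower.

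In secondary recipients the arrays were even, and KO and WT were close. No member passed the test (limma, lowest adjusted p 0.832), as none of all probes did (0%), and 1 of 132 members had an unadjusted p under 0.05, against 5.93% of all probes. On the scale of the 75th percentile the median change was -0.19 for the large and -0.21 for the small subunit. The median probe moved by 0.40, so relative to it the medians were -0.59 and -0.60, with 72 of 79 large and 49 of 56 small subunit probes below it. The median was negative on both scales, and its size differed between them. KO lay below WT without overlap on 49 members (27 large, 22 small) and above on 13, against 13.5% and 31.7% of all probes tested.

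A fit on the 4 secondary arrays alone, chosen after seeing the data, gave 95% intervals without the wide spread of the primary arrays. Over the brightest probes of the 80 genes tested, 56 were lower and 24 higher in KO on the 75th percentile scale, and 73 differed by less than 1 log2 unit. The median half-width of the interval was 1.93 units, so for a typical gene smaller changes were not detectable with these arrays. No member passed (limma, lowest adjusted p 0.656, and 0 members and 7.70% of all probes at an unadjusted p under 0.05). The lowest value was that of Rplp1, an acidic stalk protein, at 3.84 and 1.40 in KO, against 4.27 and 3.80 in WT cells, a change of -1.42 with an interval from -4.43 to 1.6. The highest was that of Rpl21, at 1.88 and 2.96 in KO, against 1.46 and 1.44 in WT cells, a change of 0.97 with an interval from -1.17 to 3.11.

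**Figure D4:**
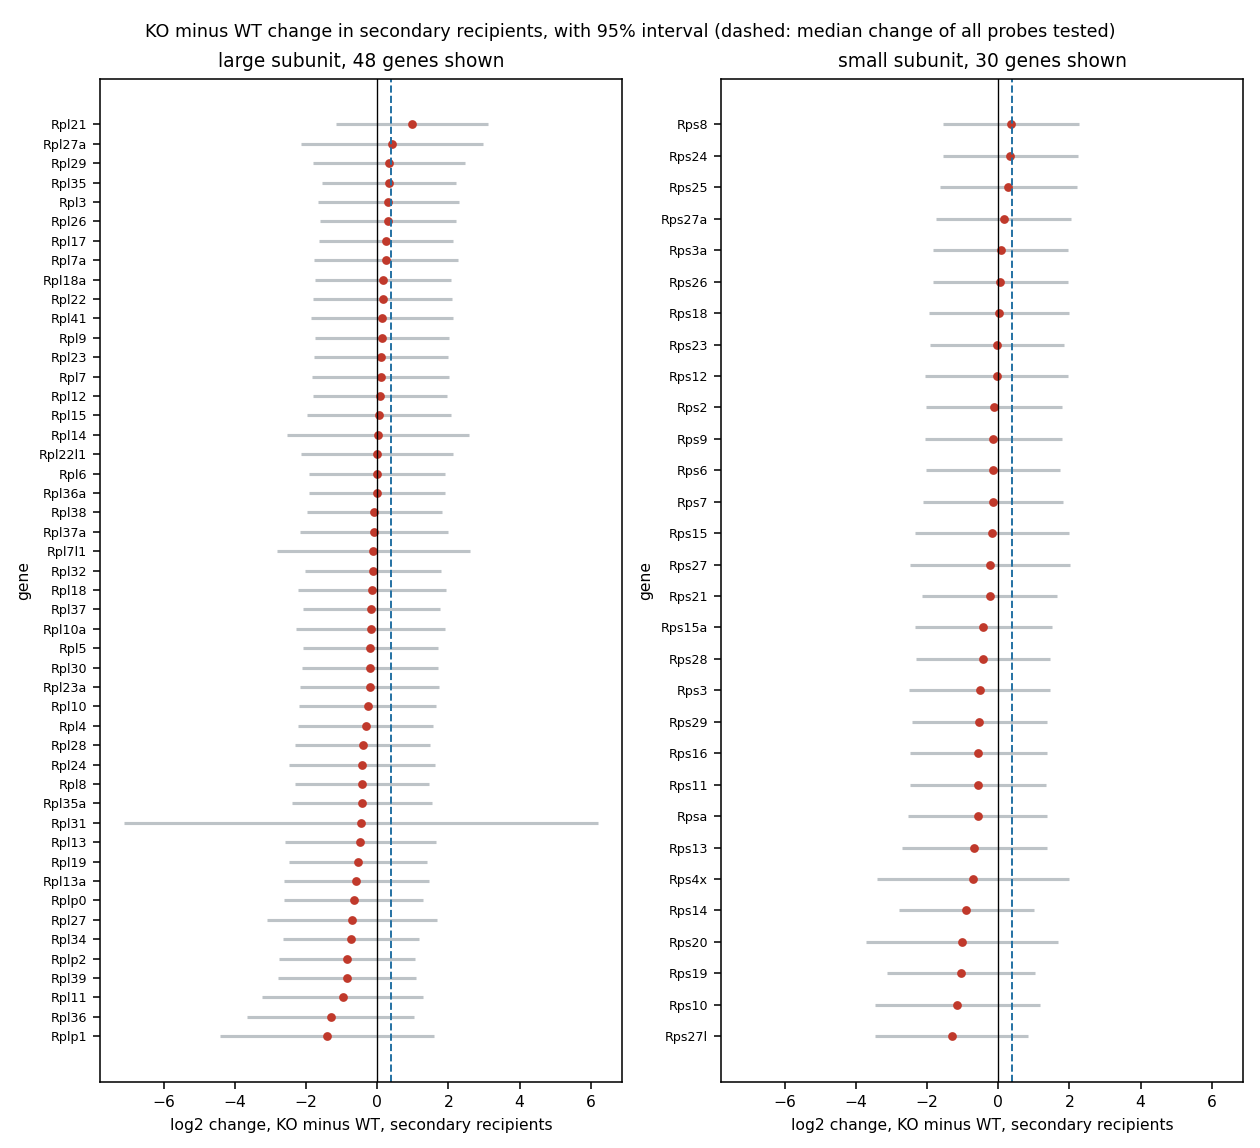
Log2 change, KO minus WT, in secondary recipients (x axis) for the brightest probe of the tested genes shown (rows), with the 95% interval of the fit on the secondary arrays alone; the dashed line is the median change of all probes tested. Every interval includes 0, and 73 of the 80 tested genes differ by less than 1 unit.

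The members of lowest p between KO and WT in secondary recipients came from probes that were not the brightest of their gene. A second probe of Rps20 stood at -4.59 and -8.05 in KO, against 0.08 and -3.19 in WT cells, a change of -5.17 ± 1.94 relative to the median probe (SE, adjusted p = 0.832 by limma). Only 1 of the 2 KO arrays measured it above background, so the size of the change is uncertain. The brightest Rps20 probe stood at 5.13 and 3.10 in KO, against 5.23 and 5.02 in WT cells. A second probe of Rpl22, also above background on 1 of 2 KO arrays, differed by -5.57 ± 2.72. A probe of Rpl13, above background on all 4, differed by -2.60 ± 1.55. Side probes of Rps19, Rps15a and Rpl11 differed by 3.18 ± 2.16, 2.24 ± 1.80 and 1.07 ± 1.42 in the other direction. Those of Rps19 and Rps15a were above background on 1 of 2 WT arrays. Rpl22 is of note in lymphoid cells, where its loss is known to affect T cell development; its brightest probe stood at 6.89 and 7.43 in KO and 6.95 and 7.06 in WT secondary cells, with no separation.

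The difference of the KO against WT change between secondary and primary recipients was tested as an interaction. No member passed (limma, lowest adjusted p 0.995; 0% of all probes) and 2 had an unadjusted p under 0.05, against 3.92% of all probes. The median difference relative to the median probe was -0.12 for the large and -0.65 for the small subunit. Its sign was not stable: leaving out 1 array gave -2.02 to 2.25 for the large and -2.90 to 1.67 for the small subunit, the extremes all without a primary array. Without both dim arrays, which leaves a single array in each primary group, the medians were -0.72 and -0.77. The members of lowest p were again ones on which the dim arrays differed. Rpl19 probe A differed by 8.63 ± 3.14, Rpl5 by 7.25 ± 3.43 and Rpl3 by 5.60 ± 3.12. One Rps3 probe differed by -8.29 ± 3.18 and the side probe of Rps20 by -5.78 ± 2.74. Over both recipients together, KO against WT, no member passed (limma, lowest adjusted p 0.863; 0% of all probes) and none had an unadjusted p under 0.05, against 4.63% of all probes. The medians were -0.57 and -0.27. Leaving out 1 array gave -1.36 to 0.15 for the large and -1.28 to 0.55 for the small subunit, above 0 without the dim WT array or the bright KO primary array. Without both dim arrays they were -0.24 and -0.29. Rpl19 probe A, Rpl5 and one probe of Rpl7a, a large subunit protein, had the lowest p among lower members (-4.89, -4.22 and -2.45). The Rps3 probe, a dim Rpl35a probe and a side probe of Rps19 had it among higher ones (3.41, 1.03 and 1.63).

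**Figure D5:**
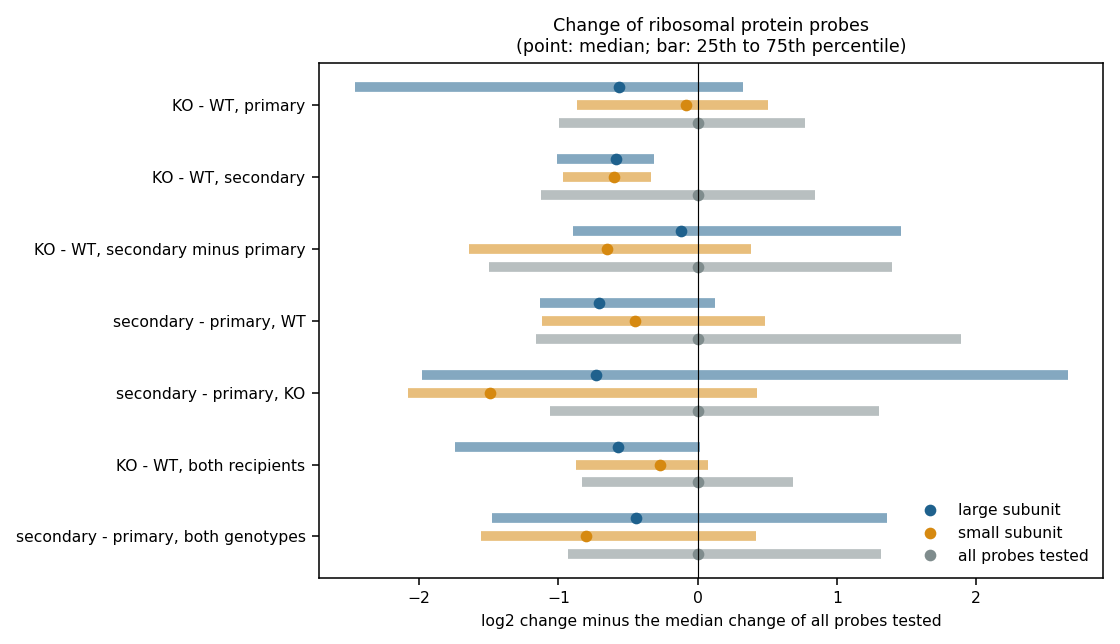
Log2 change minus the median change of all probes tested (x axis) in the 7 comparisons (rows), for large subunit probes, small subunit probes and all probes tested; points are medians and bars run from the 25th to the 75th percentile. The narrow bars are those of KO against WT in secondary recipients, with medians of -0.59 and -0.60.

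Secondary were compared with primary recipients within each genotype to ask how serial transplantation relates to ribosomal protein mRNA. In WT cells, where all 4 arrays shared a slide, no member passed (limma, lowest adjusted p 0.311; 0% of all probes). At an unadjusted p under 0.05 there were 3 members, against 12.3% of all probes. The medians relative to the median probe were -0.71 for the large and -0.45 for the small subunit. In KO cells no member passed (limma, lowest adjusted p 0.677; 0% of all probes), with 2 members at an unadjusted p under 0.05, against 6.23% of all probes, and medians of -0.73 and -1.49. Secondary and primary arrays did not overlap on 15 members higher and 16 lower in WT cells (18.8% and 35.8% of all probes tested), and on 23 higher and 17 lower in KO cells (14.1% and 25.2%). In both genotypes the medians changed sign without the dim arrays, a setting that leaves a single primary array per genotype. Without the dim arrays the large and small subunit medians were 0.51 and 0.51 in KO cells, and 1.61 and 1.39 in WT cells. Then 61 of 79 large and 37 of 56 small subunit probes lay above the median probe in KO cells, and 67 and 50 in WT cells. These are counts of probes against that single primary array, not of replicates. The direction also turned in WT cells with normexp background correction (0.33 and 0.39) and with quantile normalization (1.27 and 1.20). In KO cells quantile normalization gave 1.12 and 0.75, and normexp gave 0.23 and -0.29. The lowest p in WT cells belonged to a probe of Rpl22l1 (6.21 ± 1.45 relative to the median probe), one of Rps3 and one of Rpl22 among higher members, and to probes of Rps2, Rps4x and Rpl21 among lower ones. In KO cells it belonged to Rpl19 probe A (7.39 ± 2.22), Rpl5 and a probe of Rpl6 among higher members, and to probes of Rps2, Rpl35a and Rpl22l1 among lower ones.

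Over both genotypes 103 probes passed (limma, 0.314% of 32775), none of them a member. Leaving out any 1 array took the 103 calls to 0, and so did leaving out both dim arrays. The lowest adjusted p of a member was 0.186, and 12 members had an unadjusted p under 0.05, against 17.4% of all probes. The medians relative to the median probe were -0.44 for the large and -0.80 for the small subunit, but 1.10 and 1.001 without both dim arrays and 1.23 and 0.98 with quantile normalization. All 4 secondary arrays lay above all 4 primary arrays on 5 members and below them on 5, against 4.07% and 10.6% of all probes tested. One probe of Rpl22l1, a paralogue of Rpl22, stood at 1.20 and 0.97 in KO secondary and 1.85 and 1.35 in WT secondary, against 0.76 and -3.46 in KO primary and -3.78 and -3.95 in WT primary cells. Its change was 4.47 ± 1.09 (adjusted p = 0.186 by limma), and secondary lay above primary on every array. The other Rpl22l1 probe ran the other way, at -0.07 and 0.97 in KO secondary and 0.33 and 0.58 in WT secondary, against 1.73 and 4.49 in KO primary and 1.69 and 3.67 in WT primary cells. Its change was -1.92 ± 0.88. The side probe of Rpl6, whose protein lies on the large subunit surface, and the brightest Rpl27a probe differed by 4.58 ± 1.27 and 3.19 ± 0.91. That Rpl27a probe was not above background on either dim array. The other Rpl27a probe stood at -0.39 and -2.54 in KO secondary and -2.10 and -2.62 in WT secondary cells. In primary cells it stood at -0.12 and -1.40 in KO and 0.08 and -2.42 in WT. A side probe of Rps2 and the brightest Rpl21 probe differed by -3.18 ± 1.04 and -1.99 ± 0.93. That Rps2 probe was detected on the KO primary arrays only, and was at least 9.82-fold lower in KO secondary than in KO primary cells (adjusted p = 0.688 by limma). The side probe of Rpl22, which no primary array detected, was at least 41.0-fold higher in WT secondary than in WT primary cells (adjusted p = 0.389 by limma).

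Levels of cell type markers differed between recipients. Over both genotypes 17 of 18 granulocyte and monocyte genes lay below the median probe in secondary cells, with S100a8 and Retnlg past the threshold (adjusted p 0.046 and 0.047, limma), among the 103 calls that no left-out array kept. The summed scaled level of that list, in units of the 75th percentile, was 18.4 and 38.1 in KO secondary and 22.1 and 12.7 in WT secondary, against 239 and 15960 in KO primary and 257 and 11440 in WT primary cells. Of 20 HSC genes, 15 lay above the median probe, with Hlf past the threshold (adjusted p 0.047, limma). The median changes of the other lists were -0.90 for 9 B cell, -0.94 for 10 T and NK cell, -0.51 for 10 erythroid, 0.36 for 9 megakaryocyte and platelet and -1.41 for 7 mast cell and basophil genes, of which 4 were tested. On the dim arrays the summed scaled level of several of these lists was far above the other arrays. For T and NK cell genes it was 438.5 on the dim KO and 612.7 on the dim WT array, against 6.08 to 18.4 elsewhere. For mast cell and basophil genes it was 623.7 on the dim KO array, against 0.71 to 9.36 on the other 7. For erythroid genes it was 808.2 on the dim WT array, against 13.2 to 53.7 on the other 7. For megakaryocyte and platelet genes it was 3916 and 1529 on the dim KO and WT arrays, against 100.8 to 214 elsewhere. Single markers of these lists were mixed. Cd3d of T cells, Klf1 of erythroid and Cpa3 of mast cells lay below -1.6 on every array. Cd4 of T cells lay at 1.32 to 3.21 and Hbb-b1 of erythroid cells at 1.75 to 5.27. Each of these high sums came mostly from a single gene. Lck and Gzma reached 8.73 and 9.28 on the dim KO array, and Gata3 reached 9.22 on the dim WT array. Car2 of the erythroid list reached 9.60 on the dim WT array. Itgb3 of the megakaryocyte list reached 11.92 and 10.55 on the dim KO and WT arrays, and lay at 6.41 to 7.65 elsewhere. No other gene of these lists lay above 5.27 on a dim array. The part of these cells in the level of ribosomal protein mRNA was not tested.

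The members were also read by role, each gene by its brightest probe; no member of any role group passed the test in any comparison. In secondary recipients every gene of the groups lay below the median probe in KO against WT: 4 of 4 stalk genes (median -1.15), 5 of 5 genes of the 5S particle and p53 checkpoint (-0.59), 10 of 10 exit tunnel genes (-0.55), 6 of 6 genes near the catalytic centre and tRNA sites (-0.63) and 8 of 8 genes of the decoding site and mRNA path (-0.53). The same held for 19 of 19 Diamond-Blackfan anaemia genes (-0.63), and for 121 of all 135 member probes. These counts are relative to the median probe, which moved by 0.40. On the 75th percentile scale the direction was not uniform. There 95 of the 135 probes were lower in KO, and some genes of these groups were higher, such as Rps24 (0.34) and Rpl3 (0.32). In primary recipients the counts below were 2 of 4, 5 of 5, 7 of 10, 4 of 6, 5 of 8 and 12 of 19, with medians of -0.69, -1.69, -0.90, -1.40, -0.25 and -0.72 in that order.

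The stalk recruits elongation factors. Rplp0 stood at 3.53 and 3.67 in KO secondary and 4.02 and 4.51 in WT secondary, against 2.91 and -2.91 in KO primary and -0.80 and 10.14 in WT primary cells. Rplp1, described above, stood at 3.57 and 10.66 in KO primary and 4.72 and 8.60 in WT primary cells. Rplp2, the other acidic protein, stood at 3.61 and 3.27 in KO secondary and 4.38 and 4.18 in WT secondary cells, without overlap. Rpl12, which holds the stalk base, stood at 6.27 and 6.26 in KO secondary and 6.26 and 6.13 in WT secondary cells, and was high on both dim arrays. Rpl5 and Rpl11 bind 5S rRNA and can bind the p53 regulator Mdm2. Rpl5 stood at 5.59 and 5.78 in KO secondary and 5.94 and 5.81 in WT secondary cells. Rpl11 stood at 3.59 and 2.27 in KO secondary and 3.83 and 3.98 in WT secondary cells, and at 3.38 and -3.48 in KO primary and 3.24 and -0.61 in WT primary cells. It was therefore low on both dim arrays, unlike Rpl5.

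Among exit tunnel genes, Rpl4 stood at 4.53 and 4.56 in KO secondary and 4.74 and 5.0 in WT secondary, against 1.39 and 1.69 in KO primary and -0.63 and 9.15 in WT primary cells. Rpl17 reached the level of 7 on the dim arrays only, at 6.92 and 6.84 in KO secondary and 6.57 and 6.69 in WT secondary, against 5.82 and 11.71 in KO primary and 4.85 and 11.43 in WT primary cells. Near the catalytic centre, Rpl3 stood at 5.91 and 6.55 in KO secondary and 5.89 and 5.94 in WT secondary, against 4.00 and -0.20 in KO primary and 4.12 and 10.63 in WT primary cells. Rpl8 stood at 5.33 and 5.40 in KO secondary and 5.80 and 5.77 in WT secondary cells. On the mRNA path, Rps2 stood at 5.04 and 5.33 in KO secondary and 5.41 and 5.22 in WT secondary cells by its brightest probe. Rps3 stood at 4.74 and 4.51 in KO secondary and 5.44 and 4.86 in WT secondary cells, also by its brightest probe. In secondary recipients the KO and WT arrays of these genes lay within 1 unit of each other.

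Among Diamond-Blackfan anaemia genes, Rps19 stood at 2.42 and 3.28 in KO secondary and 4.04 and 3.75 in WT secondary cells. The groups did not overlap, and the change was -1.44 relative to the median probe. Rps24, of the small subunit, lay higher in KO without overlap, at 7.08 and 7.24 in KO secondary and 6.78 and 6.85 in WT secondary cells. Neither difference passed the test.

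Of 8 listed paralogues of ribosomal protein genes, Rpl3l, Rpl22l1, Rpl7l1 and Rps27l had probes. Rpl10l, Rpl39l, Rps4l and Rpl36al were not analysed here. Rpl3l, known from skeletal muscle and heart, did not pass the background filter by its only probe, which was well above background on 2 of 8 arrays. One probe each of Rpl21 and Rps6 also failed the filter. Rps27l, a p53 target in human cells, stood at 0.53 and 1.19 in KO secondary and 1.74 and 2.61 in WT secondary, against -1.04 and -0.91 in KO primary and 1.35 and -0.57 in WT primary cells. KO lay below WT without overlap in both recipients, and no comparison passed the test. The brightest Rpl7l1 probe stood at 0.75 and -1.20 in KO secondary and 0.20 and -0.44 in WT secondary, against 0.29 and -1.63 in KO primary and 2.93 and -2.13 in WT primary cells.

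Genes that serve ribosomes were read in the same way. Of 19 elongation factors and other genes with TOP mRNAs, 19 lay below the median probe in KO against WT secondary cells (median -0.54) and 17 in primary cells (median -1.17), and none passed the test. In primary cells Naca and Btf3, of the complex that binds nascent chains, had the lowest p, at -7.82 ± 2.09 and -6.68 ± 2.52 (SE, adjusted p = 0.999 by limma). Their list median was 4.57 and 4.45 in KO secondary and 4.81 and 4.59 in WT secondary, against 4.01 and 2.65 in KO primary and 3.60 and 9.80 in WT primary cells, so the dim arrays split these genes too.

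Ribosome biogenesis genes, which process ribosomal RNA and assemble the subunits, lay at lower levels, with a median of 0.64 and 0.33 in KO secondary and 0.92 and 1.06 in WT secondary, against -0.51 and -0.58 in KO primary and -0.77 and -0.60 in WT primary cells. Over both genotypes 49 of 69 lay above the median probe in secondary cells (median 0.95), and Mybbp1a passed the test with 5.90 ± 0.69 (SE, adjusted p = 0.046 by limma), also one of those 103 calls. Gnl3l followed with 7.23 ± 1.14 and an adjusted p of 0.057. Of 75 mitochondrial ribosomal proteins, which belong to a separate ribosome, 50 lay above the median probe in that comparison (median 0.56) and none passed, with Mrpl19 at 5.96 ± 0.91 and Mrpl3 at 4.97 ± 1.03. In KO against WT secondary cells 53 of 75 lay below (median -0.84), with Mrpl39 and Mrpl41 at -3.32 and 2.54.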

How the data were processed

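Per the file headers, the deposited scanner files hold spot intensity on a linear scale from Agilent Feature Extraction 10.5.1.1; the processed signal column, background-subtracted and detrended by that software, was used. Each array has 43379 non-control spots. In the deposited series matrix each value is a ratio, scaled to a median of 1 per array: multiplied by the array's median signal it lay between 0.999946 and 1.00005 times the scanner value, so scale, centring and direction are known. It was used as an alternative only. No source used here gives further steps.

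Outlier spots were left out, and spots of one probe averaged (Rplp0 has one probe spotted 10 times). Processed signals were divided by the array's 75th percentile and taken to log2; the log2 values were made here from the deposited intensities. Symbols were those of the files; 114 of 135 member probes matched a RefSeq accession in the GRCm38.p6 gene table, 112 under the same symbol. A probe was tested if both arrays of 1 group or more showed it well above background: 32775 of 41048 probes with a value on all arrays, and 132 of 135 members. No spot was saturated. Tests used lmFit and eBayes of limma 3.58.1 (R 4.3.3): one fit over 4 groups, and an additive fit of genotype and recipient for the comparisons over both; adjustment followed Benjamini-Hochberg at a threshold of 0.05, and the fit was tested on simulated data. Changes are given relative to the median probe tested, while p-values refer to the uncentred change. For "at least N-fold" the dim group's value was, on each array, whichever was higher of the probe's own signal and the lowest signal well above background.

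Named genes were the 3 members of lowest p per direction and comparison, the first genes of each role list, the paralogues, and the 2 of lowest p in each related list; other genes were named after their values were seen. Some items that the rule names are not reported here, though the counts, medians and fits include them. The members and lists were chosen with earlier results of these data known. A fit on the secondary arrays alone was added after seeing the data. Alternatives covered scaling, background correction, filters, probe choice, left-out arrays and blocks. Precision is limited by 2 arrays a group. Replicate numbers were checked as pairs: deviations of same-numbered arrays correlated between -0.039 and 0.155, so the numbers were not taken as pairs. The highest value was that of KO and WT primary, whose replicate 2 was the dim array in both.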

Additional observations from a re-analysis of the deposited data

How the results depend on the processing

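Each comparison was recomputed under up to 20 alternatives (the slide as a fixed block could be fitted only for secondary against primary over both genotypes). Of 408 alternative values for member calls, subunit medians and array levels, 398 stayed on their side of the threshold or within 1 SD between replicates. That SD was wide where the dim arrays entered, up to 4.48 for the large subunit in WT primary cells. Wide shifts could thus count as unchanged, and the count does not show that the medians were stable. For example, the large subunit median for secondary against primary WT cells changed sign in 4 of 18 alternatives, all among the 398. Member calls stayed at 0 except for KO against WT in primary recipients without 1 array, where they ranged from 0 to 2. With the replicate number as a block the call count of members was 0 in every comparison, and the 103 probes called over both genotypes became 0. The same 103 became 1 with normexp, 543 with quantile normalization, 228 with the slide as a random block, and 0 with array median scaling, series matrix values, no filter, the filter on all arrays, one probe per gene, any array left out, both dim arrays left out and the slide as a fixed block. The cause was not tested.

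Leaving out 1 array, the small subunit median for secondary against primary WT cells ran from -3.39 to 1.39, and the large subunit median for KO cells from -2.80 to 0.51; quantile normalization gave 1.12 for that KO median. For KO against WT in primary cells, leaving out 1 array gave -2.57 to 1.16 (large) and -2.29 to 2.04 (small); in secondary cells it gave -0.72 to -0.54 and -0.77 to -0.56. Leaving out 1 array, the side probe of Rpl11 changed by -0.37 to 3.29 in KO against WT secondary cells. With normexp the distance from the median probe was 5.22 for the large subunit in KO primary, 6.40 for the small subunit in KO secondary, and 7.03 and 7.22 for large and small in WT secondary cells; with one probe per gene the last 2 were 8.18 and 8.21. Depth here means signal over background, which was least on the dim arrays.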
